A study of Mus musculus with 48 samples.

Results

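The data described here are the RNA levels of 9 genes that mark brain pericytes, Pdgfrb, Rgs5, Kcnj8, Abcc9, Vtn, Ndufa4l2, Higd1b, Notch3 and Anpep, in the substantia nigra of mice. They were taken by gene symbol from a table of 19601 protein-coding genes, and all 9 were present in it and passed the filter on low counts. RNA sequencing was performed on the whole substantia nigra of C57BL/6J male mice that had been injected once, into the right striatum, with mouse α-synuclein (α-syn). The injected protein was either preformed fibrils (PFF), which seed aggregates of the animal's own α-syn, or α-syn monomer as the control. All mice were 121 days old at injection, and tissue was collected 90 to 98 days later. After injection the mice breathed 21% or 11% O2 in chambers. The series description has the move to 11% O2 some weeks after injection, whereas the study's account of these groups has 11% O2 for the 12 weeks after injection, so the sources used here differ on the length of exposure. The 4 groups held 11 monomer mice at 21% O2, 12 PFF mice at 21% O2, 9 monomer mice at 11% O2 and 10 PFF mice at 11% O2, 42 in all, with 1 library per mouse.

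Pericytes are mural cells that lie within the basement membrane of capillaries, in contact with endothelial cells. Endothelial PDGF-B acting on the receptor PDGFRβ recruits and keeps them on the vessel wall, and they take part in the blood-brain barrier and in the control of capillary flow. Several of the genes are shared with other cells of the vessel wall: arterial smooth muscle cells also use Notch3 and Rgs5, and perivascular fibroblasts also use Pdgfrb. In bulk tissue, a change in the number of pericytes and a change in RNA per pericyte cannot be told apart.

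The members fall into groups by role. Kcnj8 encodes Kir6.1, the pore, and Abcc9 encodes SUR2, the regulatory subunit, of the ATP-sensitive potassium channel of mural cells. Both genes lie on the minus strand of chromosome 6 (GRCm38, chr6:142564837-142571614 and chr6:142587862-142702315), with 16247 bases between them. Ndufa4l2 (chr10:127514967-127517154) encodes a mitochondrial protein related to the NDUFA4 subunit and induced by hypoxia-inducible factor (HIF), and Higd1b (chr11:102835849-102838040) encodes a mitochondrial protein of the hypoxia-inducible domain family. Rgs5 (chr1:169655501-169695813) encodes a regulator of G-protein signalling. Pdgfrb and Notch3 (chr17:32120820-32166852) encode receptors. Vtn (chr11:78499091-78502324) encodes the secreted adhesion protein vitronectin, and Anpep (chr7:79821803-79861059) encodes the surface peptidase CD13. Exons of 3 members share bases with exons of another gene on the opposite strand, and the library kit did not mark strand. Ndufa4l2 shares 32 of its 1095 exonic bases with Shmt2, Notch3 shares 488 of 8089 with Gm17276, and Abcc9 shares 158 of 8373 with 5330439B14Rik. Before correction the counts of these partners reached at most 433 for Shmt2, 123 for Gm17276 and 1 for 5330439B14Rik in any mouse. How many reads of Ndufa4l2 and Notch3 came from the shared bases was not tested.

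Since the oxygen comparison is the one in which these genes differed, the sequence upstream of the start site was searched for the core of the HIF response element, written ACGTG or GCGTG, on both strands of the 250 bases before each RefSeq start (GRCm38.p6). Of all 32851 promoters in the RefSeq table, 38.6% held 1 of the 2 forms in a window of that length. Windows were searched for 6 of the 9 genes: 4 held a core, namely Kcnj8, Vtn, Anpep and Notch3, and those of Abcc9 and Rgs5 did not. The window of Anpep (chr7:79848211-79848460) lies inside the gene as GENCODE gives it, so it is not upstream of the whole gene. No window was available for Ndufa4l2 and Higd1b, and that of Pdgfrb was not searched. The 4 stretches below are shown because they set the channel pair and Rgs5, which had large oxygen differences, beside Notch3, which had the smallest. They were chosen after these differences were seen, so they cannot show whether a core goes with a difference. Vtn, which is not shown, has 1 core 48 bases before the start. Each is written 5′ to 3′ on the strand of its gene, with the HIF core in capitals (CACGT and CACGC are the cores read on the other strand). Kcnj8 (chr6:142571615-142571864) has 1 core 221 bases before the start. Notch3 (chr17:32166891-32167140) has 2 that adjoin without overlap. Abcc9 (chr6:142702316-142702524, 209 bases, stopping where the GENCODE gene begins) and Rgs5 (chr1:169655251-169655500) have none. A match to these letters is a description and does not show that a factor binds there.
Kcnj8 promoter: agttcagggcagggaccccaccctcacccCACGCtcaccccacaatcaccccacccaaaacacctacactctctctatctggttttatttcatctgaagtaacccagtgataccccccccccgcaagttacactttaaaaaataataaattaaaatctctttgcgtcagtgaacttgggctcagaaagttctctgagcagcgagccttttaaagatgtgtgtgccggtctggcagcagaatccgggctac
Abcc9 promoter: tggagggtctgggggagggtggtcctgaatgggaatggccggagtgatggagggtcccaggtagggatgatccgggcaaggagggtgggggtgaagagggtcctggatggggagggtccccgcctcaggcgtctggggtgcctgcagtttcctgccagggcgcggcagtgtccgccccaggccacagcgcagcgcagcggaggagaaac
Rgs5 promoter: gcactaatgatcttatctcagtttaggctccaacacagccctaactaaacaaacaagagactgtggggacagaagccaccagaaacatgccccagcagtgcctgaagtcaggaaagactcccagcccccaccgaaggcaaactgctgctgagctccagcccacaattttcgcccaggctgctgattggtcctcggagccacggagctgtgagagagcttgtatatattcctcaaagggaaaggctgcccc
Notch3 promoter: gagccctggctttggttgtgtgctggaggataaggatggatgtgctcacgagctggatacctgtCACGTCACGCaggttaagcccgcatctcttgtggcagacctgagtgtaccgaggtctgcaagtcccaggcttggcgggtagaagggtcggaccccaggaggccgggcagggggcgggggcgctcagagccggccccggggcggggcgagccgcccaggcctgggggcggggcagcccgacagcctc

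Before correction the libraries of the 42 mice held 12902996 to 17120921 counts per mouse. The mice were processed in 3 batches by date, the authors removed batch differences from the counts before deposit, and levels are given here as TPM, a transcript level scaled for transcript length and library size, from the corrected table. Monomer mice at 11% and at 21% O2 occurred together only in batch 1 (4 mice each), since batch 2 held no monomer mice at 11% O2 and batch 3 none at 21% O2. Outside batch 1, oxygen and batch cannot be told apart in the monomer mice except through the authors' correction. PFF mice of both oxygen levels were in every batch. A gene is said to have risen, fallen or been called where the quasi-likelihood test of edgeR gave a Benjamini-Hochberg adjusted p under 0.05 and a log2 fold change above 0.25 in size.

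The first question was whether pericyte genes differed between mice breathing 11% and 21% O2. All 9 genes had a higher fitted level at 11% O2, in monomer mice and in PFF mice alike. In monomer mice 7 of the 9 rose (Kcnj8, Abcc9, Ndufa4l2, Higd1b, Rgs5, Pdgfrb and Vtn), against 7.23% of the 14839 genes tested that were called, 4.68% that rose and 47.9% that had a positive difference. In PFF mice 4 of the 9 rose (Kcnj8, Abcc9, Ndufa4l2 and Higd1b), against 0.58% called, 0.438% that rose and 46.8% positive. The median log2 fold change of the 9 genes was 0.57 in monomer mice and 0.34 in PFF mice, where the medians of all genes were -0.0060 and -0.0063. The plots of every mouse and of the fitted changes show both.

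**Figure D1:**
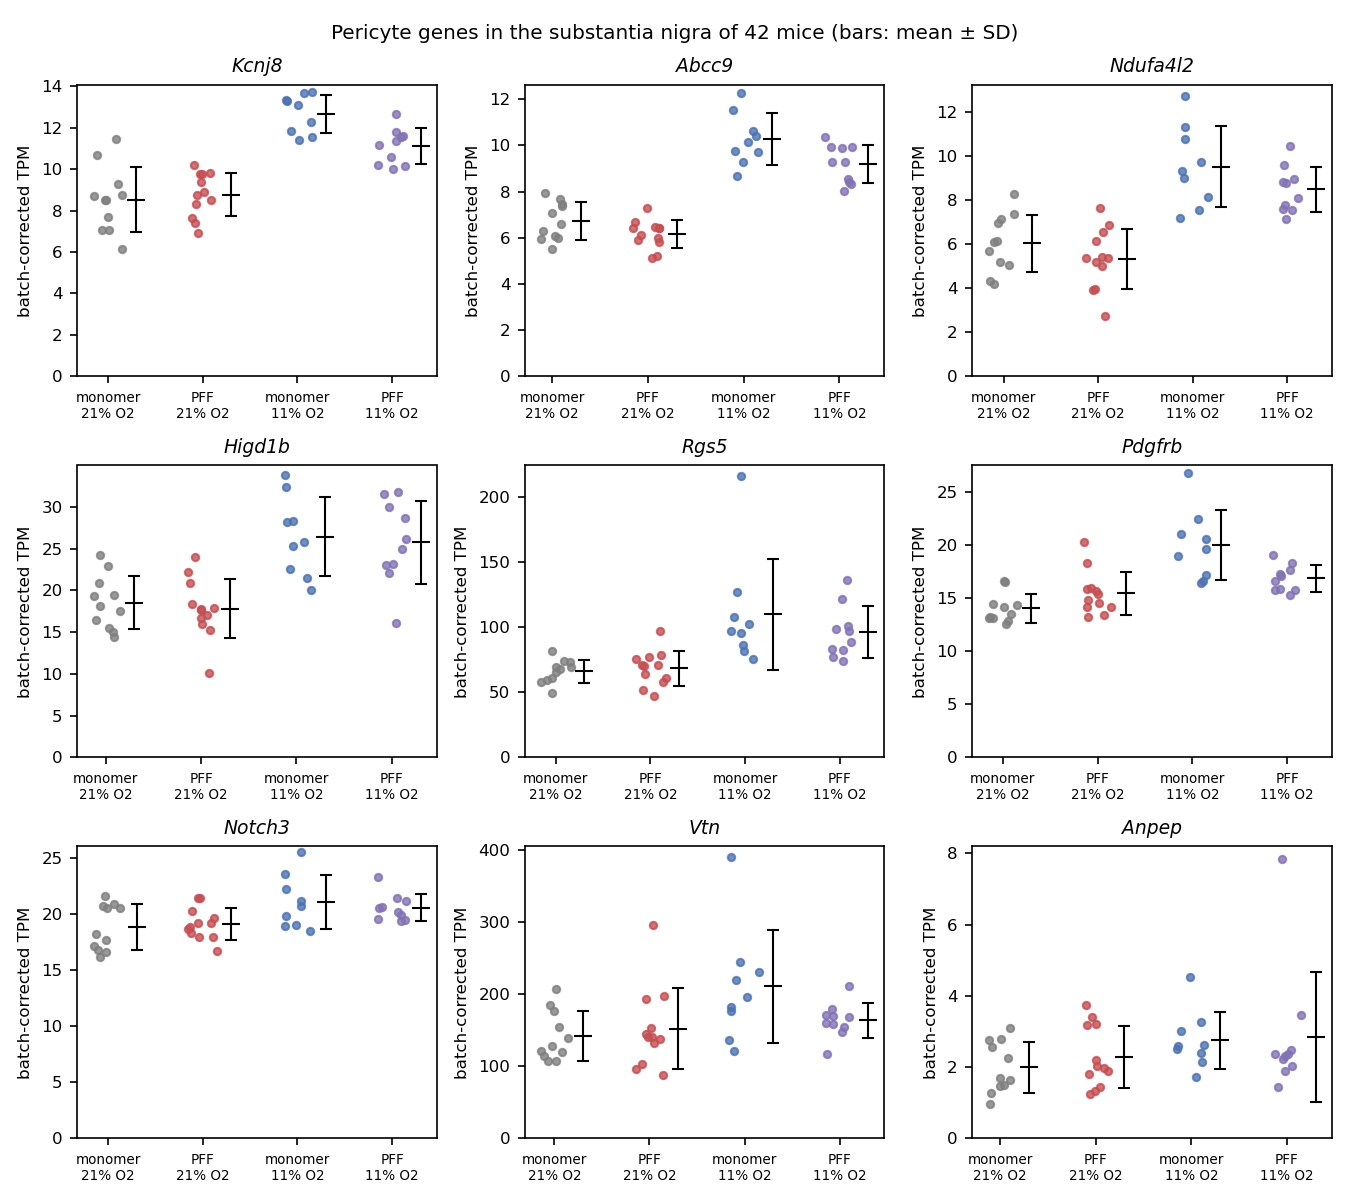
Batch-corrected level of each gene in TPM (y axis, from 0) in every mouse of the 4 groups (x axis), with the mean ± SD of each group beside its points. Abcc9 separates the oxygen levels without overlap, Notch3 hardly moves, and single mice stand far above their groups for Rgs5 (215.4 TPM), Vtn (389 TPM) and Anpep (7.85 TPM).

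Both subunits of the potassium channel rose at 11% O2 after either injection. Abcc9 ranged from 5.52 to 7.93 TPM (median 6.60) in monomer mice at 21% O2 and from 8.68 to 12.3 TPM (median 10.1) at 11% O2. In PFF mice it ranged from 5.12 to 7.29 TPM (median 6.26) at 21% and from 8.04 to 10.4 TPM (median 9.29) at 11% O2. No mouse at 11% O2 overlapped with a mouse at 21% O2 that had the same injection, and 0.229% of tested genes in monomer mice and 0.0741% in PFF mice were likewise higher without overlap. In monomer mice the log2 fold change of Abcc9 was 0.61 (SE 0.068, adjusted p = 2.7e-08). After PFF injection the value was 0.58 (SE 0.066, adjusted p = 8.4e-08). Among all genes ranked by p, Abcc9 was number 9 in the monomer mice and number 5 in the PFF mice.

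Kcnj8 had a median of 8.53 TPM (6.13 to 11.4) in monomer mice at 21% O2 and of 13.1 TPM (11.4 to 13.7) at 11% O2. All but 1 of the 9 monomer mice at 11% O2 lay above the highest at 21% O2. In PFF mice the medians were 8.81 TPM (6.93 to 10.2) and 11.3 TPM (10.01 to 12.6), and 7 of 10 at 11% O2 lay above the highest at 21%. The log2 fold changes of Kcnj8 were 0.57 (SE 0.082, adjusted p = 5.5e-06) and 0.34 (SE 0.079, adjusted p = 0.023). The 2 genes of the other channel form, Kcnj11 and Abcc8, which serve neurons, were not called in either group of mice (log2 fold changes 0.087 to 0.15).

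The mitochondrial genes Ndufa4l2 and Higd1b showed nearly equal oxygen differences after the 2 injections. Ndufa4l2 was a weakly measured gene, with 12 to 58 counts per mouse. In monomer mice its level ran from 4.19 to 8.26 TPM (median 6.11) at 21% O2 and from 7.17 to 12.7 TPM (median 9.30) at 11% O2. In PFF mice it ran from 2.75 to 7.63 TPM (median 5.36) and from 7.14 to 10.5 TPM (median 8.42). Each pair of groups overlapped slightly: 6 of 9 monomer mice and 7 of 10 PFF mice at 11% O2 lay above every mouse of the same injection at 21% O2. Its log2 fold change was 0.66 in monomer mice (SE 0.13, adjusted p = 0.00064). It was 0.66 in PFF mice too (SE 0.13, adjusted p = 0.0030), a 1.58-fold difference in both.

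Higd1b had group medians of 18.1 and 25.8 TPM in monomer mice at 21% and 11% O2, and of 17.7 and 25.6 TPM in PFF mice. Individual mice ran from 14.5 to 24.2 TPM and from 20.04 to 33.8 TPM in the monomer groups, and from 10.1 to 24.0 TPM and from 16.1 to 31.8 TPM in the PFF groups, so the groups overlapped. The log2 fold changes were 0.52 (SE 0.12, adjusted p = 0.0034) and 0.53 (SE 0.12, adjusted p = 0.012). A list of 8 genes of the NDUFA4 and HIGD1 families was examined, which includes these 2 members. Of the 7 tested, the 2 members were the only ones called. Ndufa4, the subunit of cytochrome oxidase that Ndufa4l2 resembles, had log2 fold changes of -0.077 and -0.097 at 11% O2, and Higd1a, the widely expressed relative of Higd1b, had 0.024 and 0.030, none of them called. Cox4i2, an oxygen-regulated isoform of a cytochrome oxidase subunit that is also listed among pericyte genes, had 0.19 in monomer mice and 0.49 in PFF mice (adjusted p = 0.42 and 0.055).

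Rgs5 was among the most abundant of the members. Its median was 68.0 TPM (49.2 to 81.2) in monomer mice at 21% O2 and 96.7 TPM (75.4 to 215.4) at 11% O2, and it was 70.3 TPM (47.2 to 97.3) and 92.6 TPM (73.8 to 136) in PFF mice. It rose in monomer mice (log2 fold change 0.74, SE 0.14, adjusted p = 0.00026). In PFF mice the value was 0.49 (SE 0.13) with an adjusted p of 0.060. Of 18 fits, the main one included, 6 called Rgs5 there, among them DESeq2 (adjusted p = 0.036). The adjusted p over these fits ran from 0.0092 to 0.996. The highest mouse, monomer replicate 6 at 11% O2, stood at 215.4 TPM and also had the highest summed level of 17 endothelial genes in its group (1036 TPM). Monomer replicate 11 at 11% O2 had a similar endothelial sum, 1023 TPM. The next highest Rgs5 level in that group was 126.7 TPM. The part of endothelial RNA in these Rgs5 levels was not tested. Without replicate 6, Rgs5 was still called in monomer mice (log2 fold change 0.55, adjusted p = 0.00096) and was then called in PFF mice too (log2 fold change 0.49, adjusted p = 0.0092). None of 8 other RGS genes was called at 11% O2.

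Of the 2 receptors, Pdgfrb rose at 11% O2 in monomer mice, and neither was called in PFF mice. Pdgfrb had a median of 13.5 TPM (12.6 to 16.6) in monomer mice at 21% O2 and of 19.6 TPM (16.4 to 26.7) at 11% O2, and 8 of 9 mice at 11% O2 lay above all at 21%. In PFF mice the medians were 15.1 TPM (13.2 to 20.2) and 16.8 TPM (15.3 to 19.0), and no mouse at 11% O2 exceeded the highest at 21% O2. Its log2 fold changes were 0.51 (SE 0.072, adjusted p = 4.5e-06) and 0.13 (SE 0.069, adjusted p = 0.53). Notch3 had the smallest oxygen differences, with group means of 18.8 ± 2.04, 19.1 ± 1.41, 21.1 ± 2.37 and 20.6 ± 1.20 TPM (SD) in monomer mice at 21%, PFF mice at 21%, monomer mice at 11% and PFF mice at 11% O2. In monomer mice its log2 fold change of 0.17 (SE 0.058) had an adjusted p of 0.046 and missed the fold threshold, and in PFF mice it was 0.10 (SE 0.055, adjusted p = 0.50).

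Vtn and Anpep, the secreted and surface proteins, held single mice far above the rest of their groups. Vtn ran from 107 to 207.4 TPM (median 127) in monomer mice at 21% O2, from 121 to 389 TPM (median 195) at 11% O2, from 88.1 to 295 TPM (median 140) in PFF mice at 21% and from 117 to 211.3 TPM (median 163.4) at 11% O2. It rose in monomer mice (log2 fold change 0.58, SE 0.17, adjusted p = 0.019) and had a value of 0.11 in PFF mice (SE 0.16, adjusted p = 0.85). The call rested on monomer replicate 11 at 11% O2, the mouse at 389 TPM, which was also the one collected 98 days after injection: without it the log2 fold change was 0.41 with an adjusted p of 0.085. That mouse had the highest summed level of 12 perivascular fibroblast genes in its group, 253 TPM where the group ran from 60.7 TPM upward. The PFF mouse at 295 TPM, replicate 8 at 21% O2, likewise had the highest fibroblast sum of its group, 221 TPM. The part of fibroblast RNA in these Vtn levels was not tested.

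Anpep was the least abundant member, with 16 to 117 counts per mouse and group means of 1.99 ± 0.72, 2.29 ± 0.87, 2.75 ± 0.80 and 2.84 ± 1.83 TPM (SD) in the same order of groups. It was not called, with a log2 fold change in monomer mice of 0.47 (SE 0.25, adjusted p = 0.20). The value in PFF mice was 0.31 (SE 0.23, adjusted p = 0.66). PFF replicate 8 at 11% O2 stood at 7.85 TPM and had the highest summed level of 5 blood cell genes in its group (4972 TPM). Monomer replicate 7 at 11% O2 had a blood cell sum of 5795 TPM and the lowest Anpep of its group, 1.72 TPM. The part of blood cell RNA in these Anpep levels was not tested. Without PFF replicate 8 the value in PFF mice was -0.00070 (SE 0.20, adjusted p = 1.00), so the difference there rested on that mouse.

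**Figure D2:**
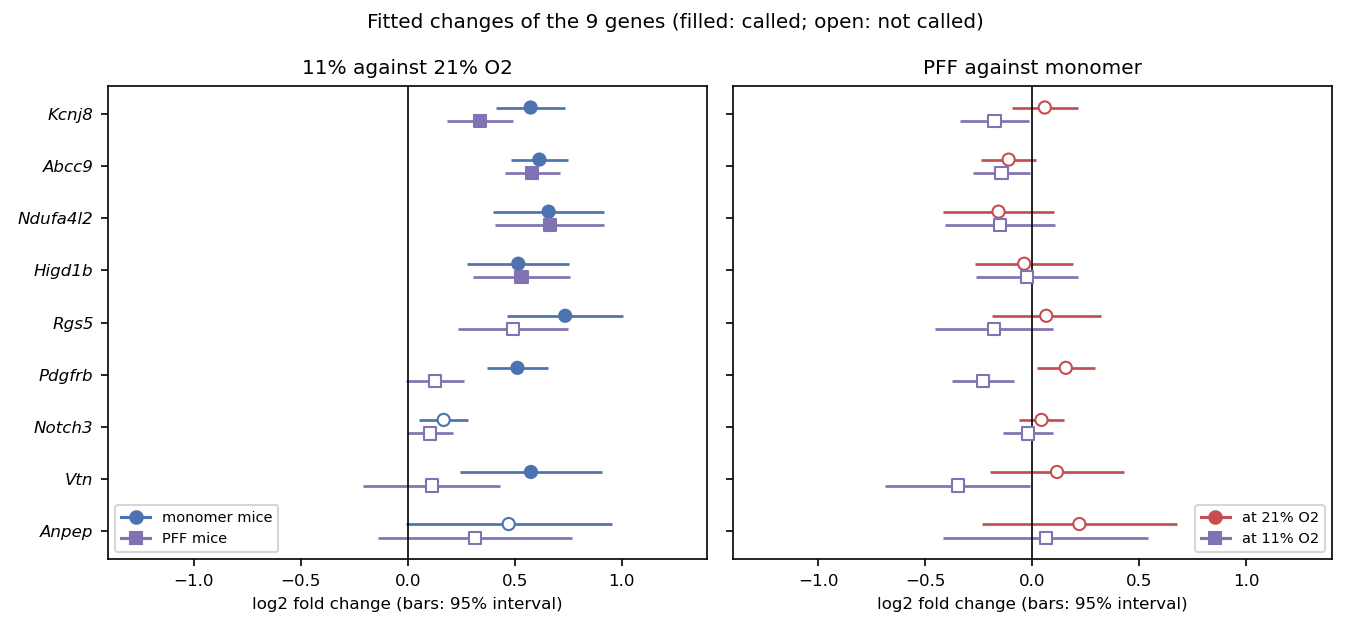
Fitted log2 fold change of each gene (x axis) with its 95% interval, for 11% against 21% O2 (left, monomer and PFF mice) and for PFF against monomer (right, at 21% and 11% O2). Filled points were called: 7 genes in monomer mice and 4 in PFF mice on the left, and none on the right.

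Because batch and oxygen were entangled in the monomer mice, the oxygen comparison was repeated within each batch, which gave 4 contrasts that share no mouse: monomer mice of batch 1, and PFF mice of batches 1, 2 and 3. Of the 9 genes, 7 were higher at 11% O2 in all 4 contrasts, against 9.94% of the 14593 genes tested in every batch. Abcc9, Ndufa4l2, Higd1b and Rgs5 were at least 0.25 higher on the log2 scale in all 4, against 0.418% of genes. Ndufa4l2 had log2 fold changes of 0.72, 0.67, 0.73 and 0.62 in the order above. Abcc9 had 0.57, 0.67, 0.49 and 0.56, Higd1b had 0.43, 0.48, 0.45 and 0.66, and Rgs5 had 0.48, 0.55, 0.68 and 0.29. Kcnj8 was lowest in batch 2 (0.63, 0.50, 0.14 and 0.33). Pdgfrb had 0.43 in the monomer mice and 0.14, 0.0067 and 0.23 in the PFF mice. Vtn and Anpep changed sign between contrasts (0.32, 0.056, -0.19 and 0.42 for Vtn, and 0.028, -0.13, 0.58 and 0.17 for Anpep). With 3 or 4 mice a group, fewer calls were made: 4 members in monomer mice of batch 1 (Kcnj8, Abcc9, Rgs5 and Pdgfrb), where 2.01% of genes were called, 1 in PFF mice of batch 1 (Abcc9), where 0.0406% were, and none in PFF mice of batches 2 and 3, where 0.0472% and 0.0136% were.

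**Figure D3:**
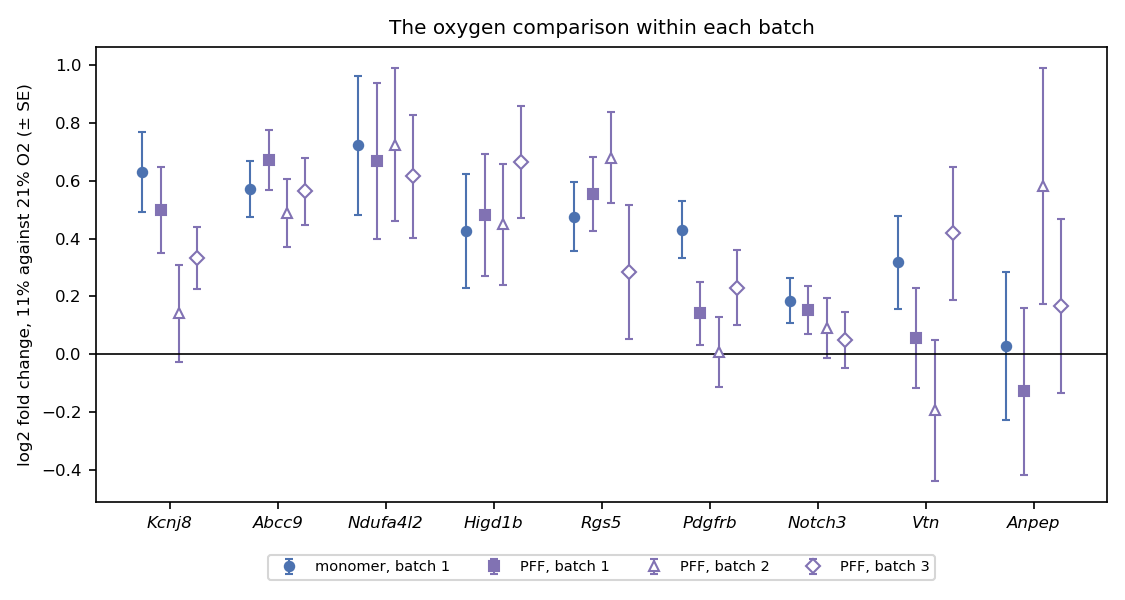
Log2 fold change for 11% against 21% O2 (y axis, ± SE) of each gene in the 4 contrasts made within a batch. Ndufa4l2, Abcc9, Higd1b and Rgs5 lie at least 0.25 above 0 in every contrast. Kcnj8, Pdgfrb and Notch3 also lie above 0 in every contrast, by less in some, and Vtn and Anpep lie on both sides of it.

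The second question was whether the PFF injection altered these genes. None of the 9 was called for PFF against monomer at either oxygen level by edgeR, DESeq2 or limma. At 21% O2, where 3.7% of genes were called, 1 member had an unadjusted p under 0.05, against 22.4% of all genes, namely Pdgfrb (log2 fold change 0.16, SE 0.068, adjusted p = 0.16), and 6 of 9 were higher with PFF, as were 50.4% of all genes. At 11% O2, edgeR called 0 of 14839 genes (581 had an unadjusted p under 0.05), limma called 0 and DESeq2 called 1, which was no member. There 3 members had an unadjusted p under 0.05, against 3.92% of all genes. These were Pdgfrb (log2 fold change -0.23, SE 0.074), Kcnj8 (-0.18, SE 0.083) and Abcc9 (-0.14, SE 0.069), all with an adjusted p of 1.00. At 11% O2 the fitted level was lower with PFF for 8 of 9 members, and the median log2 fold change was -0.15, where 49.6% of all genes were positive. In these mice 6 of 10 PFF mice lay below the lowest monomer mouse for Kcnj8, and 4 of 10 did so for Pdgfrb and for Abcc9. Of the brain endothelial genes 16 of 17 were also lower with PFF at 11% O2 (median -0.15), and of the perivascular fibroblast genes 11 of 12 were (median -0.26), none of them called. Within batches, 7 of 9 members were lower with PFF at 11% O2 in batch 1 and 9 of 9 in batch 3, with medians of -0.10 and -0.16. In these fits 48.6% and 49.0% of all genes were higher with PFF, and none was called. The mice of both batches are among those compared above. The intervals for PFF against monomer at 21% O2 ran from -0.42 to 0.10 for Ndufa4l2 and from -0.24 to 0.017 for Abcc9.

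The third question was whether the oxygen difference depended on the injection, tested as the interaction of the 2 factors. It was called for 1 of 9 members, Pdgfrb, where 2.14% of genes were called and 1.04% were called in that direction. For Pdgfrb the interaction was -0.39 (SE 0.10, adjusted p = 0.027), the oxygen difference being the smaller one in PFF mice. That call was not made on the counts before correction with batch in the model (-0.40, adjusted p = 0.051), nor in batch 1 alone (-0.29, adjusted p = 0.53), where all 4 groups were present. For Ndufa4l2, Higd1b and Abcc9 the interactions were 0.0060, 0.015 and -0.033, with 95% intervals from -0.34 to 0.35, from -0.32 to 0.35 and from -0.22 to 0.15. For Vtn and Kcnj8 they were -0.46 (SE 0.24, adjusted p = 0.34) and -0.23 (SE 0.11, adjusted p = 0.31).

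Other genes of the vessel wall were examined as lists to place the 9 genes. Of 20 other pericyte genes, 19 were tested. At 11% O2 in monomer mice 6 of them rose and none fell, among them Mcam (log2 fold change 0.69, SE 0.083), Enpep (0.72, SE 0.11) and Atp13a5 (0.40, SE 0.076), and in PFF mice Enpep alone rose (0.52, SE 0.11, adjusted p = 0.0064). With PFF at 21% O2, 3 rose: Heyl (0.45, SE 0.11), Mcam (0.33, SE 0.078) and Tbx2 (0.51, SE 0.12). The interaction was called for Mcam (-0.51, SE 0.11, adjusted p = 0.010) and Heyl (-0.59, SE 0.16, adjusted p = 0.027), the latter a transcription factor downstream of Notch3. Their median log2 fold change at 11% O2 was 0.29 in monomer mice and 0.034 in PFF mice, beside 0.57 and 0.34 for the 9 members.

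Endothelial genes rose with oxygen lowered as well. In monomer mice 13 of 17 rose, among them Kdr (log2 fold change 1.15, SE 0.093), Cldn5 (0.74, SE 0.11) and Egfl7 (0.57, SE 0.086), with a list median of 0.51. In PFF mice 3 of 17 rose, Kdr (0.97, SE 0.089), Flt1 (0.53, SE 0.11) and Cldn5 (0.47, SE 0.10), with a median of 0.26. With PFF at 21% O2, Slco1a4 alone rose (0.45, SE 0.14, adjusted p = 0.042). Their summed level ran from 542 to 717 TPM in monomer mice at 21%, from 652 to 1036 at 11%, from 503 to 738 in PFF mice at 21% and from 668 to 862 at 11% O2. Of the 9 arterial smooth muscle genes tested, Myl9 (0.67, SE 0.16) and Acta2 (1.51, SE 0.46) rose in monomer mice and none was called in PFF mice. None of 12 perivascular fibroblast genes was called for oxygen, while all 5 blood cell genes rose in monomer mice and none was called in PFF mice. These were the haem synthesis gene Alas2 (1.68, SE 0.38) and the globins Hba-a1 (1.31, SE 0.28), Hba-a2 (1.32, SE 0.30), Hbb-bs (1.19, SE 0.27) and Hbb-bt (1.55, SE 0.35), near-identical copies among which reads may be split. The part of endothelial or blood cell RNA in the members' differences was not tested.

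Genes for ligands and partners of the 2 receptors were mostly not called. Pdgfb, the endothelial ligand of PDGFRβ, had log2 fold changes of 0.17 (adjusted p = 0.265) and 0.22 (adjusted p = 0.37) at 11% O2 in monomer and PFF mice. Of 17 PDGF and Notch genes, 3 rose in monomer mice, the ligands Jag1 (0.41, SE 0.095) and Dll4 (0.73, SE 0.17) and the receptor Notch1 (0.29, SE 0.087), and the target gene Hey2 fell (-0.36, SE 0.093). In PFF mice the endothelial receptor Notch4 rose (0.47, SE 0.11). None of 7 genes for vitronectin receptors and binding partners was called. Of 7 HIF targets, a list that the study drew from these same samples and that includes Ndufa4l2, all 7 rose at 11% O2 after either injection. Their median log2 fold changes were 0.89 and 0.92, and Vegfa had 0.89 (SE 0.050) and 0.94 (SE 0.048). Besides Vegfa and Kdr, the smallest p in monomer mice was that of Cxcl12 (1.36, SE 0.12) and in PFF mice that of Ldha (0.54, SE 0.060).

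Within groups, the 9 genes did not vary as 1 block. Levels on the log2(TPM + 1) scale, less their group means, were correlated over the 42 mice for all 36 pairs, with permutation within group and batch (100000 permutations, two-sided). Pearson's r was above 0 in 35 pairs, with a median of 0.20, and 4 pairs had an adjusted p under 0.05 for r. Pdgfrb and Vtn went together most closely (r = 0.80, Spearman's rho = 0.74, both permutation p = 1e-05, the smallest that the permutations can give, and r = 0.69 without the 2 mice farthest from the median of Pdgfrb). Vtn and Anpep had r = 0.60 (rho = 0.68), Pdgfrb and Anpep 0.48 (rho = 0.48), and Rgs5 and Higd1b 0.49 (rho = 0.46). Not all of these held in every group. In PFF mice at 11% O2 alone, r was 0.065 for Vtn and Anpep and -0.10 for Pdgfrb and Anpep, against 0.65 to 0.88 in the other groups. Rgs5 and Higd1b had 0.17 in monomer mice at 21% O2 and 0.54 to 0.64 elsewhere. Pdgfrb and Vtn had 0.63 to 0.84 in every group. For Rgs5 and Higd1b the permutation adjusted p was 0.036 for r and 0.052 for rho, so by rank 3 of the 4 pairs passed. Before batch correction, with group and batch means subtracted, the 4 pairs in the same order had r = 0.82, 0.69, 0.55 and 0.50, the last with a permutation adjusted p of 0.080. The 2 channel genes, Kcnj8 and Abcc9, had r = 0.21 (permutation adjusted p = 0.465), and the r of Ndufa4l2 with the other 8 members ran from 0.020 to 0.39, none of them passing.

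The members also differed in which other vascular genes they followed between mice, given here as medians of r over a list, with no test. Every member had a lower median with the 19 other pericyte genes than with the endothelial genes. The medians were 0.27 against 0.76 for Rgs5, 0.14 against 0.37 for Higd1b, 0.17 against 0.30 for Ndufa4l2 and 0.40 against 0.42 for Pdgfrb. Vtn had its highest median with the perivascular fibroblast genes (r = 0.82 over 12 genes, against 0.55 with the 17 endothelial genes), as did Pdgfrb (0.66, against 0.42). Anpep had nearly equal medians with the fibroblast (0.49) and the endothelial genes (0.50), and 0.41 with the 5 blood cell genes. Rgs5 had its highest median with the endothelial genes (0.76), then 0.54 with the blood cell genes and 0.28 with the fibroblast genes. Kcnj8 and Abcc9 had medians of 0.16 to 0.25 with the fibroblast, endothelial and smooth muscle genes and of -0.041 and -0.031 with the blood cell genes. Ndufa4l2 had its highest median with the blood cell genes (0.44 over 5 genes). All of these values come from the same 42 libraries and share their dissection and depth.

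**Figure D4:**
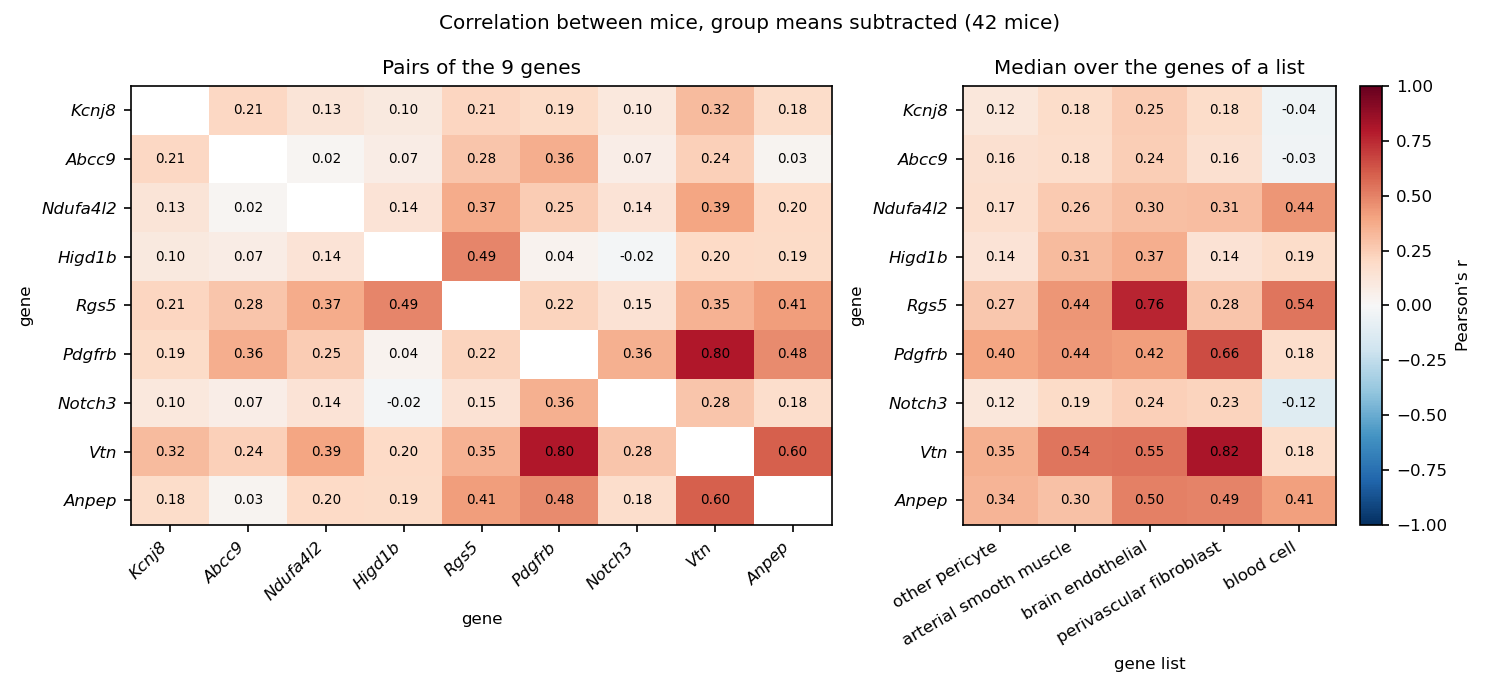
Pearson's r between mice, group means subtracted, for each pair of the 9 genes (left) and as the median over the genes of 5 lists (right). Over the 42 mice together, Pdgfrb, Vtn and Anpep form the block of high values on the left (0.48 to 0.80). Vtn with perivascular fibroblast genes (0.82) and Rgs5 with endothelial genes (0.76) stand highest on the right.

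Genes outside the members were ranked by how closely their pattern over the 42 mice followed that of Ndufa4l2. The first 5 were Gpx8 (r = 0.62), Ccn4 (0.58, mean level 0.41 TPM), Asgr1 (0.57), Gli1 (0.57) and Idh2 (0.56). The 99th percentile over 14825 genes was 0.43, which the first 5 exceed by construction, and no test was made. For the mean z-score of the other 8 members the 99th percentile was 0.68. The 5 genes most like that score were Ehd2 (r = 0.85), Ptprb (0.85), Adgrf5 (0.83), Fcgrt (0.83) and Acvrl1 (0.83). These include known endothelial genes, such as Ptprb and Acvrl1. None of these 10 genes was among the lists above.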

How the data were processed

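Whole substantia nigra from 48 mice was profiled by polyA RNA sequencing. Per the study's methods and the submitters' processing notes, the authors aligned reads with STAR 2.7.5a to mm10, removed duplicates with Picard 2.21.9, made the deposited counts per gene with featureCounts 2.0.1, left out 6 mice after principal component analysis and corrected the counts of the other 42 for batch. The deposited TPM values were made by the authors from the corrected counts over 19601 protein-coding genes. Both tables were used as deposited, and the counts before correction (55385 genes) in alternatives only.

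Groups came from the sample labels, and each mouse is a separate sample. All 42 mice entered 1 edgeR 4.0.16 quasi-likelihood fit on the corrected counts (R 4.3.3, TMM scaling, filterByExpr, 14839 genes tested). SEs were derived from the F statistic, and 95% intervals are the estimate ± the normal quantile times the SE. The correction took batch differences out of the counts beforehand, which the fit does not count as lost degrees of freedom. Alternatives used DESeq2 1.42.0, limma 3.58.1 on log2(TPM + 1) and log2(TPM + 0.1), counts before correction, single batches, a replicate block and leaving out single mice. The edgeR fit was tested on simulated data with known changes. No 2 libraries of a group agreed within sampling noise.

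The 9 members and all gene lists were chosen with earlier results of these data known. All 9 members are named. Of each list, all called genes are named where 5 or fewer were called, otherwise the 3 with the smallest p. For likeness, the 5 genes with the highest Pearson correlation over mice are named. Coordinates are from GENCODE on GRCm38, and promoter sequences from RefSeq on GRCm38.p6.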

Additional observations from a re-analysis of the deposited data

Results flagged for a closer look

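A test for a mouse far from the rest of its group was made at 11% O2 only, on 18 sets of 9 or 10 mice. The larger groups at 21% O2, of 11 monomer and 12 PFF mice, were not tested. The flags therefore cannot compare the oxygen levels. Of the 18 sets, 4 held such a mouse, and chance gives about 1 in 20. These were Anpep in PFF replicate 8 at 11% O2 (7.85 TPM), Notch3 in PFF replicate 1 at 11% O2 (23.3 TPM), Rgs5 in monomer replicate 6 at 11% O2 (215.4 TPM) and Vtn in monomer replicate 11 at 11% O2 (389 TPM). Notch3 passed only narrowly: its gap to the next mouse was 0.46606 of the range, against a critical value of 0.466. The oxygen difference of Pdgfrb differed between the injections by test, with an interaction of -0.39 on the log2 scale.

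The 6 mice that the authors left out enter no comparison above, and their TPM before batch correction is given as values. In some of them a member stood above every used mouse of its own group and above every used monomer mouse at 21% O2. Anpep did so in 5 of the 6, at 18.7 and 28.7 TPM in PFF replicates 2 and 5 at 11% O2, 5.29 and 7.30 TPM in monomer replicates 8 and 12 at 11% O2, and 9.33 TPM in monomer replicate 10 at 21% O2, where used monomer mice at 21% O2 reached 3.06 TPM. Vtn reached 878, 564 and 310.4 TPM in PFF replicate 5 and monomer replicate 12 at 11% O2 and monomer replicate 10 at 21% O2, against at most 194 TPM in used monomer mice at 21% O2. Higd1b stood at 31.4, 32.5 and 22.1 TPM in the same 3 mice. Pdgfrb stood at 36.6 and 32.7 TPM, and Notch3 at 21.2 and 25.5 TPM, in PFF replicate 5 and monomer replicate 12 at 11% O2. Ndufa4l2 stood at 16.3 TPM in PFF replicate 5 at 11% O2, and Rgs5 at 96.0 TPM in monomer replicate 10 at 21% O2. PFF replicate 2 at 11% O2, with 3134594 counts, lay below its own group for Abcc9, Higd1b, Kcnj8, Notch3, Pdgfrb and Rgs5. Its blood cell sum before correction was 29686 TPM, where used mice of its group reached at most 4603 TPM. The perivascular fibroblast sum before correction was 1157.8 TPM in PFF replicate 5 at 11% O2. It was 364.9 TPM in monomer replicate 12 at 11% O2 and 433.03 TPM in monomer replicate 10 at 21% O2. PFF replicate 2 and monomer replicate 8 at 11% O2 had 289.8 and 272.6 TPM. Each of these sums lay above every used mouse of its group. Monomer replicate 9 at 11% O2 had 143.9 TPM and did not. The part of fibroblast RNA in these mice was not tested.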

How the results depend on the processing

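Direction held for all 9 genes in monomer mice at 11% against 21% O2 under every alternative run, and the number called there was 6 to 8 except in batch 1 alone (4). In PFF mice it was 3 to 5, except on counts before correction with no batch term (2) and in batch 1 (1), batch 2 (0) and batch 3 (0) alone, where fewer mice were tested. PFF against monomer gave 0 at both oxygen levels throughout. The interaction of Pdgfrb was not called (0 members) on counts before correction, with batch as covariate in 42 or 48 mice or with no batch term, or in batch 1 alone, and the cause was not tested. Of the correlated pairs, 4 held with either pseudocount and 3 before correction. The replicate block called 8 members in monomer mice (Anpep added, 0.58), 4 in PFF mice and 1 in the interaction. Same-numbered mice did not deviate together in most pairs (r over 0.1 in 0 of 8, 5 of 10, 1 of 7 and 4 of 11). The first 2 counts are for oxygen in monomer and in PFF mice, the last 2 for PFF against monomer at 11% and 21% O2. The study describes a matched-pairs design by weight, age and delivery date. Such correlations cannot decide whether the replicate numbers follow those pairs, and the main fit treated mice as unpaired. Ndufa4l2 and Anpep rest on 12 to 58 and 16 to 117 counts per mouse, which limits their precision.

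Log2 values that changed sign were uncalled in both forms. For PFF against monomer at 21% O2 these were, in batch 1, Higd1b 0.026, Notch3 -0.0012 and Anpep -0.16, and in batch 2 Rgs5 -0.026 and Higd1b 0.0050. At 11% O2 they were, in batch 1, Rgs5 0.24, Higd1b 0.080 and Anpep -0.32, and for Anpep also -0.088 in batch 3, -0.17 with the replicate block and -0.036 and -0.065 by limma with pseudocounts of 1 and 0.1. For oxygen in PFF mice they were Vtn -0.19 in batch 2 and Anpep -0.13 in batch 1. For the interaction they were, in batch 1, Rgs5 0.078, Abcc9 0.10 and Ndufa4l2 -0.055. On counts before correction with batch Ndufa4l2 had -0.0039, with no batch term Ndufa4l2 had -0.16, Higd1b -0.0063 and Anpep 0.032, with 48 mice Higd1b had -0.028 and Anpep 0.52, and with the replicate block Ndufa4l2 had -0.12.

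Leaving out 1 mouse at a time was done for 4 mice chosen after seeing the data (monomer replicates 6 and 11 and PFF replicate 8 at 11% O2, and PFF replicate 8 at 21% O2), not for every mouse. It gave 6 to 7 calls in monomer mice, 4 to 5 in PFF mice and 1 for the interaction. The ranges that crossed 0 were, for PFF against monomer at 21% O2, Vtn -0.016 to 0.12, and at 11% O2, Rgs5 -0.25 to 0.0086, Higd1b -0.064 to 0.030, Notch3 -0.037 to 0.017 and Anpep -0.25 to 0.18. For oxygen in PFF mice Anpep ran from -0.00070 to 0.40, and for the interaction Abcc9 ran from -0.034 to 0.0013 and Higd1b from -0.026 to 0.068.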

Other observations

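Outside the vessel wall few listed genes were called. None of 8 neuron, 6 astrocyte, 6 microglia or 5 tested choroid plexus markers was called in any comparison by edgeR. Of 6 oligodendrocyte markers, Mog (log2 fold change 0.32, SE 0.062, adjusted p = 0.00040) and Cnp (0.26, SE 0.064, adjusted p = 0.0050) rose at 11% O2 in monomer mice, and the interaction was called for Mog (-0.33, SE 0.086, adjusted p = 0.027). Mog encodes a glycoprotein of the myelin surface and Cnp an enzyme of myelin.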
